A study of Mus musculus with 14 samples.

Results

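A set of 10 genes of the p53 damage response and of mitochondrial apoptosis was followed in the mouse ovary: Trp53, Chek2, Mdm2, Cdkn1a, Ccng1, Bax, Bbc3, Pmaip1, Bcl2 and Trp63. They were taken by gene symbol from the 56748 genes of an RNA sequencing table, and all 10 were found and passed the filter on low values. All animals were female wild-type C57BL/6J mice, and the 4 groups were DSS day 89 (n = 4), control day 89 (n = 3), DSS day 7 (n = 4) and control day 7 (n = 3). DSS is dextran sulfate sodium, a polymer that injures the colon lining of mice and is used as a model of colitis. The series text places day 7 at the end of modelling and day 89 after a rest. The labels state neither the dose of DSS nor the age of the animals. Whether libraries came from separate animals is not stated, and the p-values therefore reflect differences among libraries, part of which may be technical. The design asks how ovaries of DSS mice differ from those of control mice at each time.

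The p53 protein is a transcription factor that is stabilised after DNA damage, when checkpoint kinases such as CHK2, encoded by Chek2, act on it and on its relatives. It then raises transcription of arrest genes such as Cdkn1a, of killer genes such as Bbc3, Pmaip1 and Bax, and of Mdm2, whose product marks p53 for destruction and closes a negative feedback loop. Much of this control acts on the protein, so transcript levels of Trp53 do not measure p53 activity. In mouse oocytes the relative p63, encoded by Trp63, guards genome integrity: CHK2 activates it after damage, and BBC3 (PUMA) and PMAIP1 (NOXA) carry out the death that follows.

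Promoter windows are shown for Cdkn1a and Ccng1. Among the members searched, these were the ones with a sequence match to a p53 response element near a gene start. RefSeq windows on GRCm38.p6, from 250 bases before to 50 bases after a start, were used for 8 of the 10 members, 11 windows in all; none was used for Trp63 or Pmaip1. The search was for 2 adjoining copies of the p53 half-site consensus, 20 bases in all, with at most 2 mismatches and the core C and G of each copy kept. The consensus reads the same on both strands. Such a site was in 2 of the 11 member windows and in 0.326% of all 32851 windows; the share was 0.067% with at most 1 mismatch. Capitals mark the site, which had 1 mismatch in either gene, and each window is written 5′ to 3′ on the strand of its gene.
Cdkn1a upstream window, chr17:29090729-29090978, plus strand: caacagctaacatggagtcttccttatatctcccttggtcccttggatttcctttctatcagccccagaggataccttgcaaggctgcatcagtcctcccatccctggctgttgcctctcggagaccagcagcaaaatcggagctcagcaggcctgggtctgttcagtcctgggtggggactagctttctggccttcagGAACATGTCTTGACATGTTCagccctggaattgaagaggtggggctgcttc
Ccng1 upstream window, chr11:40755287-40755536, minus strand: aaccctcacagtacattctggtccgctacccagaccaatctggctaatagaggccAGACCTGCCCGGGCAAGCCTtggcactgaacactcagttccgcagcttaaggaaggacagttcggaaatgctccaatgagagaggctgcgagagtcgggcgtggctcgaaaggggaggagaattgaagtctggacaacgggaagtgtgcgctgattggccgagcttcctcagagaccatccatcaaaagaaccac
The Cdkn1a site lay at chr17:29090928-29090947, from -51 to -32 relative to the start at chr17:29090979. The other Cdkn1a window, around a start at chr17:29093769, held no such site. The Ccng1 site lay at chr11:40755462-40755481, from -195 to -176 relative to its start. A match describes letters and not binding, and no match says only that these letters are not in that window.

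Values are FPKM as deposited by the authors, that is, fragments divided by gene length and by a total for the library. Whole reads could be recovered from them, with 15256018 to 18505144 reads per library. The total implied by the values was 0.852 to 1.07 times these reads, so it was not the plain depth. It was lowest against the reads in the 3 libraries named next. In 3 libraries, all of day 7, the share of reads from mitochondrially encoded genes was high: DSS replicate 75 had 14.2%, control replicate 10 had 9.96% and control replicate 53 had 12.2%, against 0.479% to 4.04% in the other 11. Short genes also stood higher against long ones at day 7 than at day 89. The mean deviation of genes up to the first quartile of length minus that of genes from the third quartile up, on the log2(FPKM + 1) scale, was -0.38 to 0.11 in the 7 libraries of day 89 and 0.12 to 0.42 in the 7 of day 7. Although the extraction text mentions retinas, the tissue label is ovary. All 13 oocyte markers and all 8 granulosa cell markers reached 0.5 FPKM, against 3 of 10 retina markers, whose summed level was 3.81 to 7.67 FPKM.

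No member passed the test between DSS and control ovaries at either time, and few genes of the whole table did. Members were tested with limma on log2(FPKM + 1) in 1 fit across 18006 genes, and a gene was called at a Benjamini-Hochberg adjusted p under 0.05. At day 89, 0 of 10 members were called between DSS and control, where 0.00555% of all genes tested were. At day 7, 0 of 10 members were called, against a background of 0.0333%. The unadjusted p was under 0.05 for 1 member at day 89, Cdkn1a, and for 3 at day 7, Trp53, Ccng1 and Mdm2. For the difference between both DSS effects the count of members called was again 0 of 10, with 0.00% of all genes called. There 0 members had an unadjusted p under 0.05, against 8.45% of all genes tested. With voom and limma on the recovered reads 0 of all 18006 genes were called in each of these 3 comparisons. The count of 0 members there says nothing about the members in particular.

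Between the times 4 members were called. No library was shared between the days, so time, age of the animals and any difference in library preparation cannot be told apart. Rises and falls between days are therefore differences between groups of libraries. In control ovaries 2 of 10 were called, Trp53 higher and Bax lower at day 89 than at day 7, against 31.8% of all genes. In DSS ovaries 2 of 10 were called as well, Ccng1 higher and Trp63 lower at day 89, against 21.4% of all genes. Set against those backgrounds, 2 of 10 is no more than genes at large gave. The median difference of the 10 members was -0.13 for DSS at day 89, -0.25 for DSS at day 7, -0.09 for the days in DSS ovaries and -0.04 for the days in control ovaries, against medians over all tested genes of 0.0043, 0.0042, 0.0045 and -0.0047 (log2).

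Counting members whose libraries did not overlap between groups gave a similar picture. Between DSS and control this was 1 of 10 at day 89, Cdkn1a, where 8.29% of all genes were so separated, and 1 of 10 at day 7, Ccng1, against 12.1%. Between days it was 2 of 10 in DSS ovaries, Ccng1 and Trp63, against 24.8%. In control ovaries it was 3 of 10, Ccng1, Bax and Bbc3, against 45% of all genes.

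**Figure D1:**
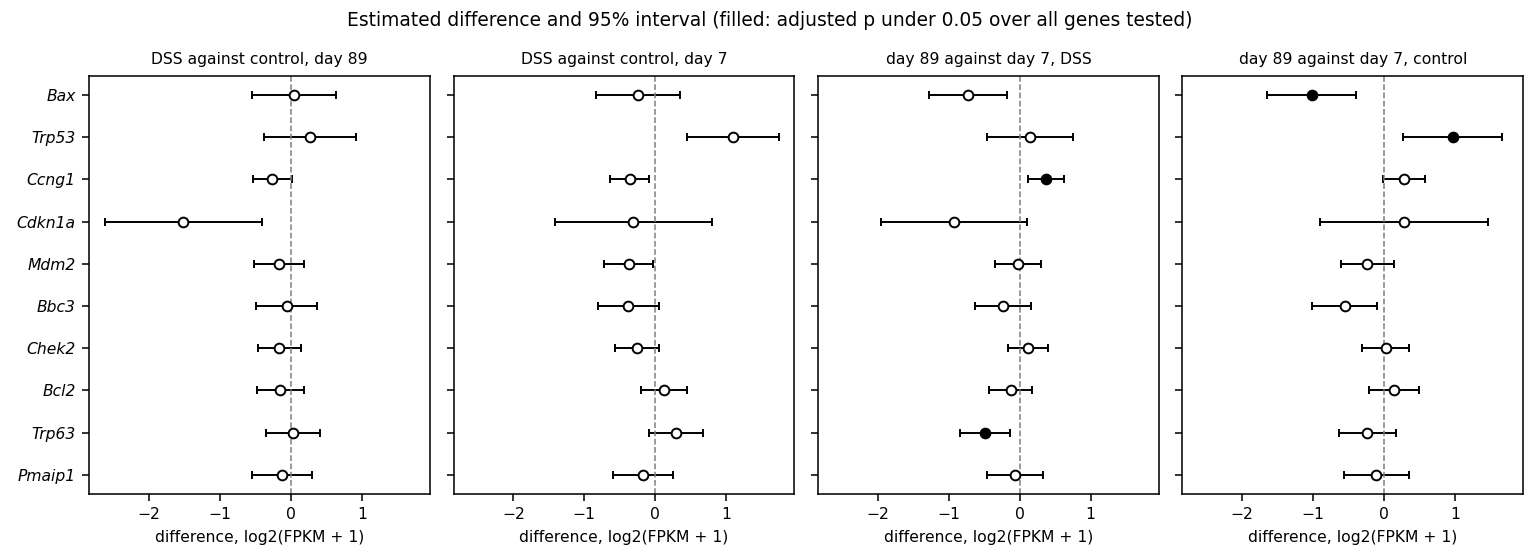
Estimated difference of each member in 4 comparisons on the log2(FPKM + 1) scale, with its 95% interval from limma; filled points have an adjusted p under 0.05 over 18006 genes. The filled points are Ccng1 and Trp63 between days in DSS ovaries and Bax and Trp53 between days in control ovaries, and no point is filled in the panels of DSS against control.

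The members spanned a wide range of abundance. Bax was the most abundant, with a mean over the 14 libraries of 70.7 FPKM, above 96.4% of the genes tested. Trp53 followed at 25 FPKM, Ccng1 at 21.9, Cdkn1a at 16.3 and Mdm2 at 12.9 FPKM. Bbc3 averaged 5.33, Chek2 4.31, Bcl2 2.10, Trp63 0.798 and Pmaip1 0.521 FPKM. Neighbours in this order overlapped in their libraries except at 2 steps: every Mdm2 value was above every Bbc3 value, and every Chek2 value above every Bcl2 value. Cdkn1a varied most, 9.59 times between its highest and lowest library, and Mdm2 least, 1.75 times. Trp63 rested on 33 to 243 reads per library and Pmaip1 on 10 to 69, so both are known with less precision than the rest.

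**Figure D2:**
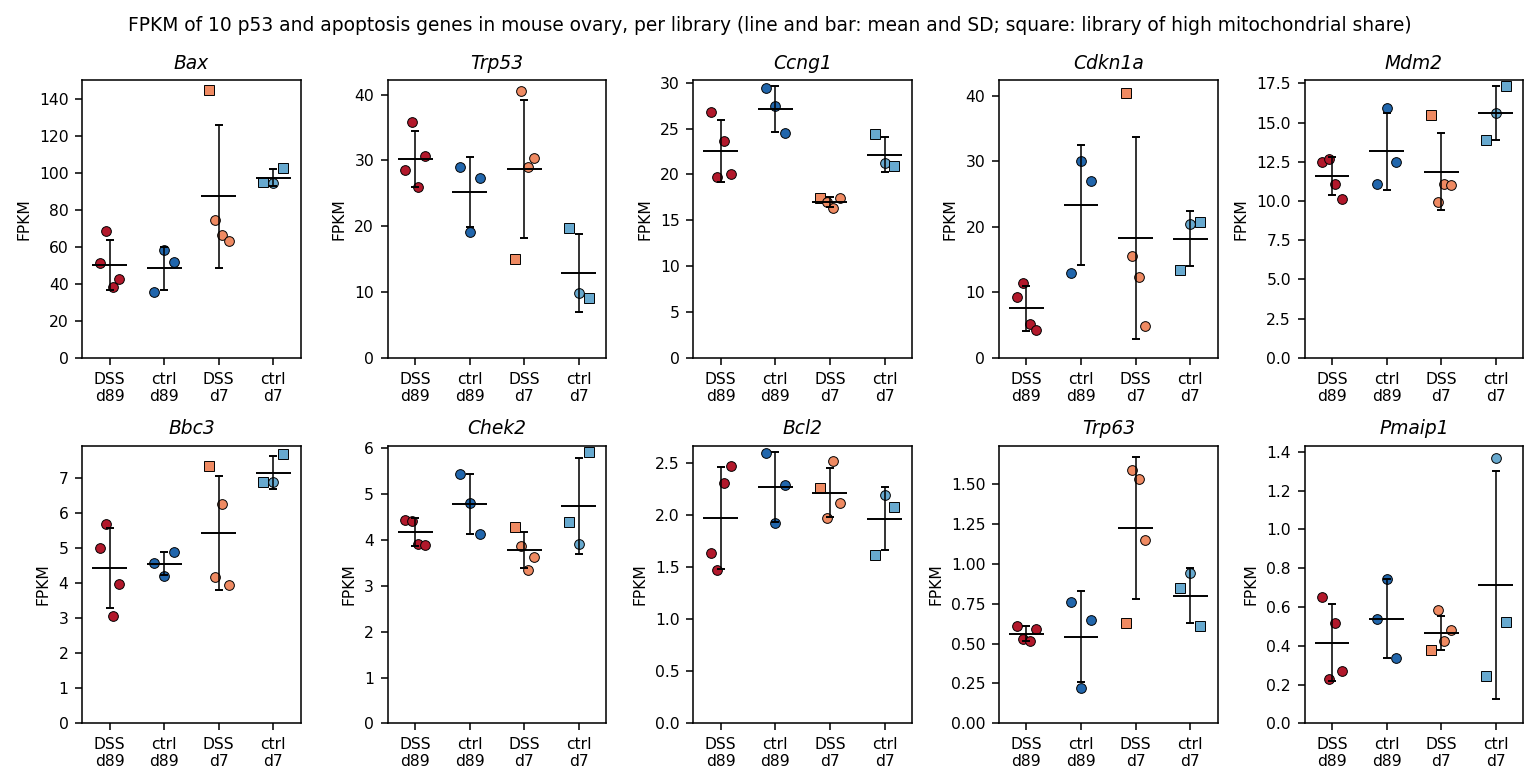
FPKM of the 10 members in each library, by group, with the group mean and SD; squares are the 3 libraries of high mitochondrial share. Bax in DSS day 7 replicate 75 stands at 145 FPKM above the other DSS day 7 libraries, and Cdkn1a in all 4 DSS day 89 libraries lies below the 3 control day 89 libraries.

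Trp53 (chr11:69580359-69591873, plus strand, on GRCm38 as are all gene positions here) encodes p53. At day 89 it stood at 28.5, 35.9, 25.9 and 30.7 FPKM in DSS ovaries and at 29, 19.1 and 27.4 FPKM in control ovaries. At day 7 it stood at 15.0, 40.5, 29 and 30.4 FPKM in DSS ovaries and at 19.8, 9.88 and 9.15 FPKM in control ovaries. The day 7 groups overlapped through 1 library each, DSS replicate 75 at the low end and control replicate 10 at the high end, while 2 of 3 control day 7 libraries were the lowest of the study.

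The day 7 difference of Trp53 between DSS and control was 1.09 on the log2(FPKM + 1) scale (SE 0.30, 95% interval 0.44 to 1.74), with an adjusted p of 0.136 in limma. It missed the threshold. The difference was unlike on either side of the mitochondrial split. It was 0.14 among the libraries of high share (1 DSS, 2 control) and 1.64 among the others (3 DSS, 1 control). Each side thus held 1 library of a group. Within control day 7, Trp53 was 9.88 FPKM in replicate 51, not of high share. It was 19.8 and 9.15 FPKM in replicates 10 and 53, of high share. Without the 3 libraries of high share the adjusted p was 0.0204, with 1 control library left, and without DSS day 7 replicate 75 alone the difference was 1.36 with an adjusted p of 0.0129. The summed level of the 8 granulosa cell markers, all detected, was 732 to 3318 FPKM in DSS day 7 and 1075 to 1791 FPKM in control day 7, with the lowest value in DSS replicate 75. Marker sums of 8 other lists, among them macrophages, erythrocytes and oocytes, did not overlap between DSS and control at day 7 and are given with Ccng1. The part of mitochondrial share and of cell makeup in the Trp53 values was not tested. In bulk tissue, fewer cells of a type and less RNA per cell cannot be told apart.

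At day 89 the DSS difference of Trp53 was 0.27 (interval -0.38 to 0.92, adjusted p 0.942). The difference between both DSS effects was -0.82 (interval -1.74 to 0.10, adjusted p 0.63), so a smaller difference at day 89 was not shown. Within control ovaries Trp53 rose by 0.97 (SE 0.32, adjusted p 0.0362), at 25.1 ± 5.30 FPKM at day 89 and 12.9 ± 5.93 FPKM at day 7 (SD, n = 3 each), although control day 7 replicate 10 lay within the range of day 89. Trp53 was called in 16 of the 24 alternatives and lost in 8. The losses were with a model term for high mitochondrial share (0.71, adjusted p 0.221), without the filter (adjusted p 0.0808), with the control groups alone in the fit (adjusted p 0.0600), with equal library medians (adjusted p 0.0571), and without control day 7 replicates 51 or 53 or control day 89 replicates R123 or R126. In DSS ovaries the day difference was 0.14 (interval -0.46 to 0.75, adjusted p 0.742).

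Chek2 (chr5:110839979-110874145, plus strand), the kinase gene, was among the steadiest members. It lay at 4.44, 4.42, 3.92 and 3.90 FPKM in DSS day 89, 5.44, 4.81 and 4.13 FPKM in control day 89, 4.28, 3.86, 3.35 and 3.62 FPKM in DSS day 7 and 4.39, 3.91 and 5.93 FPKM in control day 7. All 4 groups overlapped. The DSS differences were -0.16 at day 89 (interval -0.47 to 0.15, adjusted p 0.931) and -0.25 at day 7 (interval -0.56 to 0.05, adjusted p 0.397).

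Mdm2 (chr10:117688875-117710758, minus strand) encodes the ubiquitin ligase that limits p53. It stood at 12.5, 12.7, 11.1 and 10.1 FPKM in DSS day 89 and at 11.1, 15.9 and 12.5 FPKM in control day 89. At day 7 it stood at 15.5, 9.91, 11.1 and 11 FPKM in DSS ovaries and at 13.9, 15.6 and 17.3 FPKM in control ovaries. In all, 3 of the 4 DSS day 7 libraries lay below every control day 7 library, and the exception was again replicate 75. The day 7 difference was -0.37 (SE 0.16, interval -0.72 to -0.02, adjusted p 0.281), 0.00 among the libraries of high mitochondrial share and -0.50 among the others. At day 89 it was -0.16 (interval -0.51 to 0.19, adjusted p 0.936).

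Mdm2 and Trp53 ran opposite to each other across libraries. Pearson's r was -0.87 and Spearman's rho -0.83 over 14 libraries, as a description, since the libraries share their groups and both values share a library's scaling. After subtracting group means r was -0.80, without the 2 libraries farthest from the median of Trp53 it was -0.83 (n = 12), and without the libraries of high mitochondrial share -0.78 (n = 11). Cdkn1a against Trp53 gave r = -0.52 and Ccng1 against Trp53 r = -0.09 over the same libraries. None of these 3 targets gave a positive r with Trp53 over the 14 libraries. For Bax, Bbc3 and Pmaip1 it was -0.60, -0.65 and -0.48. After subtracting group means, an opposite run was not particular to Mdm2 and Trp53, with r of -0.87 for Mdm2 and Trp63. Pairs that ran together were as close, at 0.90 for Cdkn1a and Bax and 0.83 for Mdm2 and Bax. Without that subtraction r was -0.48, 0.59 and 0.65 for these 3 pairs.

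**Figure D3:**
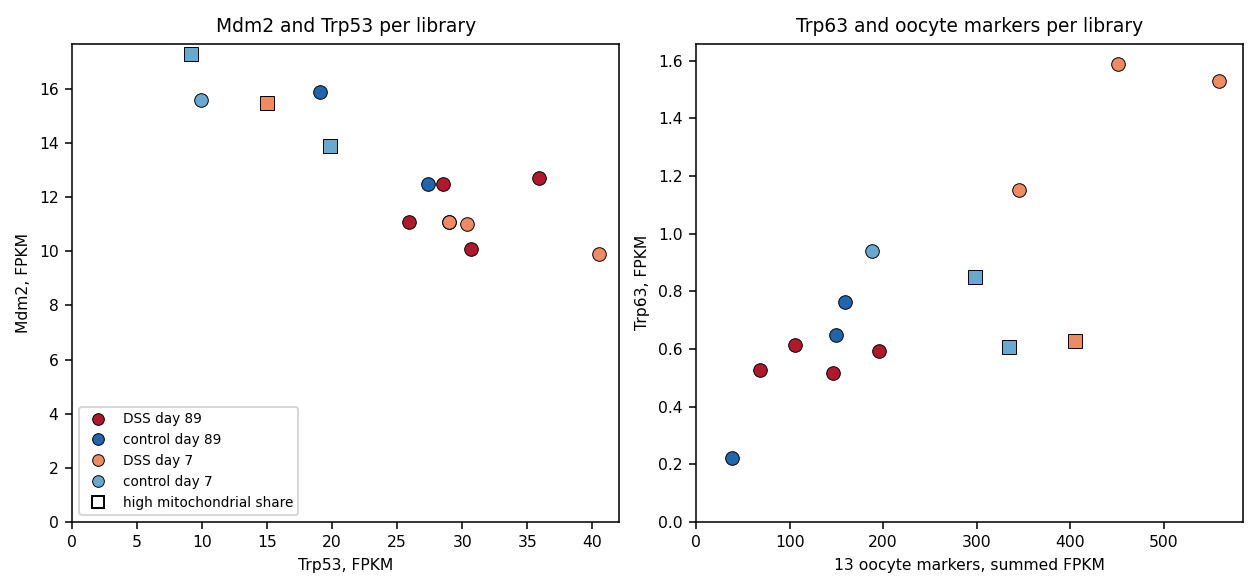
Left, Mdm2 against Trp53 in FPKM for each of the 14 libraries, where Mdm2 is lower in libraries of higher Trp53 (r = -0.87); a DSS day 7 and a control day 89 library coincide at 29 and 11.1 FPKM. Right, Trp63 in FPKM against the summed FPKM of 13 oocyte markers (r = 0.79), where the libraries of highest Trp63 are 3 of DSS day 7; squares mark high mitochondrial share.

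Cdkn1a (chr17:29090976-29100727, plus strand) encodes p21, a cyclin-dependent kinase inhibitor that halts the cell cycle, and carries the sequence match shown above. An antisense gene is annotated over it on the minus strand, and with no strand setting stated their reads cannot be told apart. At day 89 it stood at 9.33, 11.5, 5.22 and 4.22 FPKM in DSS ovaries and at 13, 30.1 and 27.0 FPKM in control ovaries. All 4 DSS libraries lay below all 3 control libraries. The means were 7.56 ± 3.42 FPKM (SD, n = 4) in DSS and 23.4 ± 9.09 FPKM (SD, n = 3) in control ovaries, a difference of -1.52 (SE 0.51, interval -2.62 to -0.41). The unadjusted p was 0.0108 and the adjusted p 0.924 in limma, so it was not called. Over the 24 alternatives the difference stayed between -1.87 and -1.30 and the adjusted p between 0.578 and 1.0. Markers of T and B lymphocytes, 7 of 10 reaching 0.5 FPKM, summed to 20.2 to 57.6 FPKM in DSS day 89 and 9.01 to 10.5 FPKM in control day 89; the share of mitochondrial reads was 2.37% to 3.66% in DSS day 89 and 0.479% to 2.25% in control day 89. The part of either in the Cdkn1a values was not tested.

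At day 7 Cdkn1a showed no one direction. It stood at 40.5, 15.6, 12.3 and 4.94 FPKM in DSS ovaries, which held both the highest value of the study and nearly the lowest, and at 13.4, 20.5 and 20.7 FPKM in control ovaries. The difference was -0.31 (interval -1.41 to 0.80, adjusted p 0.805). It was 1.23 among the libraries of high mitochondrial share, which include the library at 40.5 FPKM, and -0.98 among the others. Between both DSS effects the difference was -1.21 (interval -2.77 to 0.35, adjusted p 0.668). Between days it was -0.93 in DSS ovaries (adjusted p 0.177), called in 1 alternative, without DSS day 7 replicate 82 (adjusted p 0.0379), and 0.28 in control ovaries (adjusted p 0.72).

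Ccng1 (chr11:40748552-40755311, minus strand), whose window held the second sequence match shown above, encodes cyclin G1, a p53 target that takes part in the MDM2 loop. It stood at 26.8, 19.7, 23.7 and 20.1 FPKM in DSS day 89 and at 29.4, 27.5 and 24.5 FPKM in control day 89. At day 7 it stood at 17.4, 17.0, 16.3 and 17.4 FPKM in DSS ovaries and at 24.4, 21.2 and 20.9 FPKM in control ovaries. The DSS day 7 libraries were tightly grouped and all below every control library. The means there were 17.0 ± 0.538 FPKM (SD, n = 4) in DSS and 22.2 ± 1.94 FPKM (SD, n = 3) in control ovaries, a difference of -0.36 (SE 0.13, interval -0.63 to -0.09, adjusted p 0.204), which was not called.

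Unlike Trp53 and Cdkn1a, Ccng1 gave a near-equal difference on either side of the mitochondrial split, -0.36 among the libraries of high share and -0.31 among the others. Macrophage markers, 8 of 8 reaching 0.5 FPKM, summed to 277 to 361 FPKM in DSS day 7 and at most 180 FPKM in control day 7. Erythrocyte markers, 5 of 5, summed to 410 to 725 FPKM in DSS day 7 and 49.9 to 309 FPKM in control day 7. Neutrophil markers, 7 of 9, summed to 13.1 to 132 FPKM in DSS day 7 and 1.81 to 3.68 FPKM in control day 7. T and B lymphocyte markers, 7 of 10, summed to 17.4 to 30.6 FPKM in DSS day 7 and 10.2 to 16.6 FPKM in control day 7. The 13 oocyte markers summed to 345 to 559 FPKM in DSS day 7 and 188 to 335 FPKM in control day 7, and the 6 markers of primordial follicle oocytes to 23.7 to 38.4 FPKM in DSS and 17.9 to 20.2 FPKM in control ovaries.

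Epithelial markers ran the other way. Ovarian surface and oviduct markers, 8 of 10, summed to 40.7 to 89.4 FPKM in DSS day 7 and 92.2 to 96.8 FPKM in control day 7, and basal and squamous markers, 2 of 10, to 32.8 to 42.1 FPKM in DSS and 52.7 to 72.5 FPKM in control ovaries. In each of these 8 lists the sums did not overlap between DSS and control at day 7, so they separated the same libraries as Ccng1 did. Their part in the Ccng1 values, and in the day 7 values of Trp53 and Mdm2, was not tested.

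Ccng1 was higher at day 89 than at day 7 in every library of either treatment when each is set against its own day 7 group. In DSS ovaries it rose by 0.38 (SE 0.12, adjusted p 0.0365), at 22.6 ± 3.35 FPKM at day 89 and 17.0 ± 0.538 FPKM at day 7 (SD, n = 4 each). Ccng1 was called in 15 of the 24 alternatives and lost in 9. The losses were without the libraries of high mitochondrial share (adjusted p 0.0530), with the DSS groups alone in the fit (adjusted p 0.0622), with equal library medians (adjusted p 0.0608), and on leaving out DSS day 7 replicates 75, 80, 81 or 82 or DSS day 89 replicates R29 or R78. In control ovaries the difference was 0.28 (interval -0.01 to 0.57, adjusted p 0.131). The DSS difference at day 89 was -0.26 (interval -0.53 to 0.01, adjusted p 0.924).

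Bax (chr7:45461697-45466898, minus strand) encodes the effector that permeabilises the outer mitochondrial membrane. It stood at 51.6, 68.9, 38.4 and 42.7 FPKM in DSS day 89 and at 35.6, 58.3 and 51.7 FPKM in control day 89. At day 7 it stood at 144.9, 74.8, 66.8 and 63.2 FPKM in DSS ovaries and at 95.5, 94.6 and 102.8 FPKM in control ovaries. Of the DSS day 7 libraries 3 of 4 lay below the controls, and replicate 75 lay far above them. The DSS differences were 0.05 at day 89 (interval -0.54 to 0.64, adjusted p 0.995) and -0.24 at day 7 (interval -0.83 to 0.35, adjusted p 0.704), the last being 0.54 among the libraries of high mitochondrial share and -0.47 among the others.

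Bax fell between the days in control ovaries, by 1.02 on the log2(FPKM + 1) scale (SE 0.29, adjusted p 0.0185), at 48.5 ± 11.7 FPKM at day 89 and 97.6 ± 4.50 FPKM at day 7 (SD, n = 3 each), with no overlap. In DSS ovaries the difference was -0.73 (interval -1.28 to -0.18, adjusted p 0.0551), which was not called. Bax is a short gene in the deposited table, 1576 bases, under the first quartile of 1613.25 over the tested genes, and short genes as a class were lower at day 89. With each library's length trend removed, an alternative added after the data were seen, the control difference was -0.73 with an adjusted p of 0.0574. With a term for high mitochondrial share it was -0.62 (adjusted p 0.181). Luteal cell markers, 8 of 8, summed to 4471 to 5030 FPKM in control day 89 and 2471 to 3520 FPKM in control day 7. Other sums did not overlap between these groups either and were lower at day 89. They were those of oocytes, primordial follicle oocytes, erythrocytes, ovarian surface and oviduct epithelium, and basal and squamous epithelium. The part of any of these lists in the Bax values was not tested.

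Bbc3 (chr7:16308393-16318205, plus strand) encodes PUMA, which neutralises BCL2 and its kin. It stood at 5.02, 5.68, 3.08 and 3.97 FPKM in DSS day 89 and at 4.58, 4.22 and 4.89 FPKM in control day 89. At day 7 it stood at 7.34, 4.18, 6.27 and 3.96 FPKM in DSS ovaries and at 6.89, 6.90 and 7.70 FPKM in control ovaries. The DSS ovaries were the more dispersed at either time. No DSS difference was called, at -0.06 for day 89 (interval -0.49 to 0.37) and -0.38 for day 7 (interval -0.81 to 0.05, adjusted p 0.373). The day difference in control ovaries was -0.55 without overlap (interval -1.01 to -0.09, adjusted p 0.0633), and in DSS ovaries -0.23 (adjusted p 0.384). Bbc3 and Bax went together over the 14 libraries, with r = 0.81 and rho = 0.75, and r = 0.70 after subtracting group means, given as a description; both genes lie on chromosome 7.

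Pmaip1, which encodes NOXA, was at the edge of detection. It stood at 0.650, 0.231, 0.515 and 0.269 FPKM in DSS day 89, 0.540, 0.743 and 0.335 FPKM in control day 89, 0.380, 0.585, 0.425 and 0.481 FPKM in DSS day 7 and 0.244, 1.37 and 0.525 FPKM in control day 7. The groups overlapped throughout, and control day 7 replicate 51, at 69 reads, was the highest. The DSS differences were -0.12 at day 89 (interval -0.55 to 0.30) and -0.17 at day 7 (interval -0.59 to 0.25), with adjusted p-values of 0.962 and 0.71.

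Bcl2 (chr1:106538178-106714274, minus strand) encodes the founding inhibitor of mitochondrial apoptosis. It stood at 1.64, 1.47, 2.31 and 2.47 FPKM in DSS day 89, 2.60, 1.92 and 2.29 FPKM in control day 89, 2.26, 1.97, 2.52 and 2.12 FPKM in DSS day 7 and 1.62, 2.19 and 2.08 FPKM in control day 7. No group stood apart. The DSS differences were -0.15 at day 89 (interval -0.47 to 0.18) and 0.12 at day 7 (interval -0.21 to 0.45), with adjusted p-values of 0.94 and 0.731. Across the 14 libraries Bcl2 varied 1.76 times and Bax 4.07 times. The ratio of Bax to Bcl2 was 28.0 ± 14.2 in DSS day 89 and 22.2 ± 8.33 in control day 89, and 39.6 ± 17.0 in DSS day 7 and 50.5 ± 7.92 in control day 7 (SD, n = 4 in DSS and n = 3 in control). In both pairs the ratios of DSS and control libraries overlapped.

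Trp63 (chr16:25683763-25892102, plus strand) encodes p63. It stood at 0.612, 0.527, 0.518 and 0.593 FPKM in DSS day 89 and at 0.762, 0.222 and 0.647 FPKM in control day 89. At day 7 it stood at 0.628, 1.59, 1.53 and 1.15 FPKM in DSS ovaries and at 0.849, 0.941 and 0.607 FPKM in control ovaries. The 3 highest libraries of the study were among the 4 of DSS day 7. The DSS differences were 0.03 at day 89 (interval -0.35 to 0.42, adjusted p 0.995) and 0.29 at day 7 (interval -0.09 to 0.67, adjusted p 0.445).

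In DSS ovaries Trp63 fell by 0.49 between days (SE 0.16, adjusted p 0.0492), at 0.563 ± 0.0470 FPKM at day 89 and 1.22 ± 0.443 FPKM at day 7 (SD, n = 4 each), without overlap. This call was fragile. It was made in 7 of the 24 alternatives and lost in 17, with adjusted p-values of up to 0.126. The losses included the pseudocount of 0.1, no filter, TMM rescaling, voom, the DSS groups alone in the fit, and 12 of the 14 fits that left out 1 library. In control ovaries the difference was -0.23 (interval -0.64 to 0.17, adjusted p 0.364); with the length trend removed it was -0.55 (adjusted p 0.039).

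The oocyte markers moved with Trp63. All 13 were detected, and their sum was 67.8 to 195 FPKM in DSS day 89 and 345 to 559 FPKM in DSS day 7, and 38.1 to 159 FPKM in control day 89 and 188 to 335 FPKM in control day 7. Control day 89 replicate R124 had the lowest sum and the lowest Trp63. Over 14 libraries Trp63 and the sum gave r = 0.79 and rho = 0.74, r = 0.47 after subtracting group means, 0.60 without the 2 libraries farthest from the median sum (n = 12) and 0.94 without the libraries of high mitochondrial share (n = 11). Trp63 also marks basal and squamous epithelium. Of 10 markers of that tissue 2 reached 0.5 FPKM and Krt6a was at 0 in every library; their sum was 8.32 to 17.3 FPKM in DSS day 89, 9.05 to 12.7 in control day 89, 32.8 to 42.1 in DSS day 7 and 52.7 to 72.5 in control day 7. The part of either cell type in the Trp63 values was not tested.

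For each member the genes of most similar pattern were ranked by Pearson's r of log2(FPKM + 1) over the 14 libraries, among 12390 candidates, with group and library scaling shared by all. Bax had the closest partner, Ptov1 at r = 0.983, and Trp53 had Sgce at 0.958. Mdm2 was closest to Rbm28 at 0.941, Cdkn1a to Podnl1 at 0.941, Ccng1 to Apln at 0.930, Trp63 to Ndc80 at 0.929, Pmaip1 to Slc33a1 at 0.926 and Bbc3 to Kptn at 0.917. Chek2 and Bcl2 had the weakest best partners, Dhx16 at 0.844 and Med18 at 0.823.

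The wider pathway was read through 7 lists of 106 genes, of which 101 were tested; the lists were drawn up with earlier results of these data known. Between DSS and control 0 of the 101 were called at day 89 and 0 at day 7, with medians of -0.05 and 0.05. Between days 11 of 101 were called in DSS ovaries, 6 higher and 5 lower at day 89 (10.9%, median 0.06), and 28 of 101 in control ovaries, 21 higher and 7 lower (27.7%, median 0.20). Both shares were below those of all genes tested. With the length trend removed the counts were 3 higher and 9 lower in DSS ovaries and 9 higher and 8 lower in control ovaries. The split between higher and lower thus depended on that trend.

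**Figure D4:**
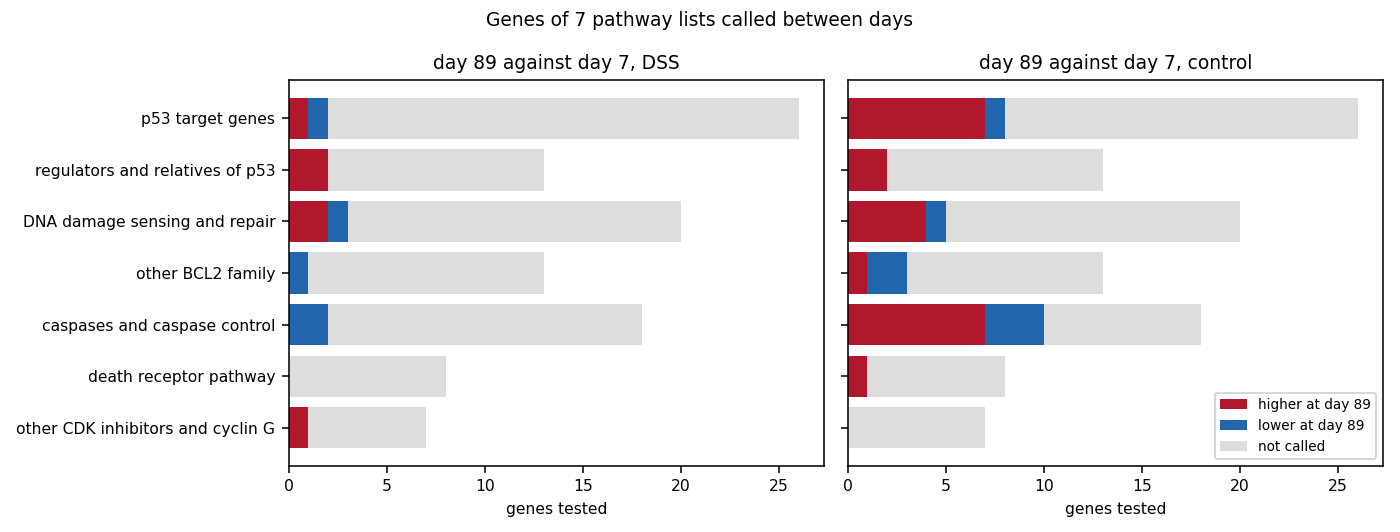
Number of genes in each of 7 pathway lists that were higher, lower or not called at day 89 against day 7, in DSS ovaries (left) and control ovaries (right); bars start at 0. Caspases and their controllers had 2 of 18 genes called in DSS ovaries, where 21.4% of all genes were, and 10 of 18 in control ovaries, where 31.8% were; 5 of the 7 rises in control ovaries lost their call with the length trend removed.

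The changes between day 89 and day 7 are taken first for genes upstream of p53. Atm, the kinase that senses double-strand breaks, had the smallest p of its list in both treatments. It rose in DSS ovaries, at 2.74 ± 1.15 FPKM at day 89 and 0.616 ± 0.330 FPKM at day 7 (difference 1.18, adjusted p 0.00434), and in control ovaries, at 3.27 ± 0.374 FPKM at day 89 and 0.389 ± 0.0886 FPKM at day 7 (difference 1.62, adjusted p 0.000918). It remained called with the length trend removed (0.92 in DSS and 1.25 in control ovaries). Rnf8, a ubiquitin ligase of the break response, fell in both, by 0.77 in DSS (adjusted p 0.0211) and by 1.27 in control ovaries (adjusted p 0.002). Ep300, an acetyltransferase that acts on p53, rose in both, by 1.04 in DSS (adjusted p 0.00253) and by 1.26 in control ovaries (adjusted p 0.000934). Of the 20 damage genes tested 2 rose and 1 fell in DSS ovaries, and 4 rose and 1 fell in control ovaries, both smaller shares than among all genes. Prkdc, a kinase of end joining, rose in DSS ovaries (0.51), and Trp53bp1 (0.58) and Nbn (0.74) rose in control ovaries; of these 3, Nbn kept its call with the length trend removed. Of 13 regulators and relatives of p53, 2 rose in either, the other being Hipk2 in DSS ovaries (1.41, adjusted p 0.0323) and Kat5 in control ovaries (0.41, adjusted p 0.035). In either treatment that was 15.4% of the list, with 21.4% of all genes called in DSS and 31.8% in control ovaries.

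Downstream, between the same days, 1 of 26 further p53 targets rose and 1 fell in DSS ovaries, or 7.69% of the list with 21.4% of all genes called. In control ovaries 7 rose and 1 fell, or 30.8% of the list with 31.8% of all genes called, and 6 of the 7 rises, all but that of Ppm1d, were lost with the length trend removed. Psrc1 fell by 0.79 in DSS ovaries (adjusted p 0.0289). In control ovaries Ei24 fell by 0.46, and Rrm2b, which supplies nucleotides for repair, and Polk, a lesion-bypass polymerase, rose by 0.61 and 0.67. Zmat3, an RNA-binding p53 target, rose in both (0.57 in DSS, adjusted p 0.0371; 0.71 in control, adjusted p 0.0195), and neither call held with the length trend removed (adjusted p 0.178 in DSS and 0.186 in control ovaries). Ppm1d, the phosphatase that shuts off the damage signal, rose in control ovaries by 0.48 (adjusted p 0.00648) and differed by -0.10 in DSS ovaries (adjusted p 0.471); the difference between the DSS effects was -0.59 (adjusted p 0.422). Ppm1d was also the target of smallest p in both DSS comparisons, uncalled, at -0.33 for day 89 (adjusted p 0.924) and 0.26 for day 7 (adjusted p 0.259).

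Among other genes of apoptosis, Birc5 and Diablo were lower at day 89 than at day 7 in both treatments. Birc5 encodes survivin, made by dividing cells, and fell by 0.98 in DSS ovaries (adjusted p 0.00182) and by 0.83 in control ovaries (adjusted p 0.00349). Diablo, whose product frees caspases from their inhibitors, fell by 0.77 in DSS ovaries (adjusted p 0.0169) and by 1.28 in control ovaries (adjusted p 0.00154). Of 18 caspases and caspase controllers 2 fell and 0 rose in DSS ovaries, or 11.1% with 21.4% of all genes called. In control ovaries 3 fell and 7 rose, or 55.6% with 31.8% of all genes called, among them Xiap at 0.81 and Aifm1 at 0.59. With the length trend removed all 3 falls and 2 of the 7 rises, Aifm1 and Htra2, kept their call, and 5 rises, Xiap, Apaf1, Casp9, Casp6 and Casp2, lost it. Whether these counts differ between DSS and control ovaries was not tested. In the BCL2 family, Bok fell in both, by 0.74 in DSS (adjusted p 0.00616) and by 0.50 in control ovaries (adjusted p 0.0422), and the control difference was -0.25 (adjusted p 0.321) with the length trend removed. In control ovaries Bik fell by 0.74 and Bcl2l11 rose by 0.58, out of 13 family members tested. Of 8 death receptor genes 0 were called in DSS ovaries and 1, Ripk1 (0.45), in control ovaries. Of 7 cyclin-dependent kinase inhibitors and cyclin G genes 1 was called in DSS ovaries, Cdkn1b (1.01, adjusted p 0.0136), and 0 in control ovaries. In DSS ovaries the BCL2 family had 7.69% called, the death receptor genes 0.00% and these inhibitors 14.3%, with 21.4% of all genes called. In control ovaries the shares were 23.1%, 12.5% and 0.00%, with 31.8% of all genes called. With the length trend removed, Hipk2 in DSS ovaries and Bik, Bcl2l11 and Ripk1 in control ovaries were no longer called either.

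In the comparisons of DSS with control, where no gene of these lists was called, the gene of smallest p in each list is given by value. At day 89 these were Ppm1d, Kat5 (0.31), Rnf168 (-0.36), Mcl1 (-0.41), Cycs (0.32), Cflar (-0.33) and Cdkn2b (-1.02), each with an adjusted p of 0.924. At day 7 they were Ppm1d, Kat5 (0.46), Rad50 (0.53), Bcl2l11 (0.42), Casp2 (0.58), Tradd (-0.44) and Cdkn1b (-0.62), with adjusted p-values from 0.135 for Kat5 to 0.319 for Tradd. Cdkn2b, an inhibitor of cyclin-dependent kinases, shared with Cdkn1a a negative difference at day 89 and overlapped between its groups, at 4.67 to 26.0 FPKM in DSS ovaries and 10.8 to 40.7 FPKM in control ovaries.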

How the data were processed

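RNA of 14 ovary libraries was sequenced. Per the labels' protocols, total RNA was made into TruSeq libraries, and HISAT2 2.0.5 and GRCm38 are named per the submitters' processing notes. No source used here names the counter or the strand handling, so reads of overlapping genes and pseudogenes are uncertain. Among those with deposited values the highest was 0.655 FPKM, for Trp53-ps. The antisense gene annotated over Cdkn1a had no deposited value, so its level is unknown. The authors deposited FPKM per gene and library. FPKM times gene length fell on whole reads for all values below 300 steps (tolerance 0.01). Positions come from GENCODE M21 on GRCm38 by gene ID; the deposited start and end differed for all 10 members.

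Genes with at least 0.5 FPKM in at least 3 libraries were tested as log2(FPKM + 1) with limma 3.58.1 (limma-trend, R 4.3.3), with 1 mean per group over all 14 libraries and Benjamini-Hochberg adjustment over 18006 genes at 0.05. This scale understates changes of low genes. The limma script was tested on data simulated with a common dispersion and without a trend of gene length or mitochondrial share. That test does not tell which changes would be missed in these libraries. The members and lists were chosen with earlier results of these data known. Every member was named; from each list, genes were named by smallest p among those called, at most 4 per comparison, or else the gene of smallest p in a DSS comparison. Alternatives covered the pseudocount (0.1), the filter, the scaling (TMM, equal medians), the variance model, voom on recovered reads, the samples fitted, mitochondrial share, gene length and each library left out. The TMM factors were 0.981 to 1.02, so that rescaling changed the values little.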

Additional observations from a re-analysis of the deposited data

Results flagged for a closer look

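Bax in DSS day 7 replicate 75 was 145 FPKM, and the other 3 libraries of that group were at 74.8, 66.8 and 63.2 FPKM. The gap to the nearest library was 0.858 of the group's range, above Dixon's 95% critical value for 4 samples. It was the 1 outlier among 20 groups of 4 examined, and chance alone gives about 1 in 20. The same library had a mitochondrial share of 14.2% of reads, the highest of the study, and 40.5 FPKM of Cdkn1a. Without it the day 7 difference of Bax between DSS and control was -0.51 on the log2(FPKM + 1) scale.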

How the results depend on the processing

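Over 24 alternatives the count of members called between DSS and control at day 89 was 0 in each. At most 5 of all genes were called in any of them. For the difference of the DSS effects at most 41 of all genes were called. The count of members was 0 in the 23 alternatives that could be run there, the fit of only the groups compared being none. At day 7 the count was 1 (Trp53) without the libraries of high mitochondrial share, and leaving out 1 library each gave 0 to 1. For the days in DSS ovaries the count of 2 became 1 with a pseudocount of 0.1, without the filter, after TMM rescaling and without the libraries of high mitochondrial share, and 0 with only the groups compared; leaving out 1 library each gave 0 to 2, with 0 without DSS day 7 replicates 80 or 81 or DSS day 89 replicates R29 or R78. For the days in control ovaries it became 1 without the filter and without the libraries of high mitochondrial share, and 0 with a term for that share; leaving out 1 library each gave 0 to 3, with 0 without control day 7 replicate 53 or control day 89 replicate R123. An unchanged count of 2 did not always hold the same genes: in control ovaries it was Bax and Bbc3, without Trp53, with equal medians and with only the groups compared, and in DSS ovaries Bax and Trp63 with equal medians and Bax and Ccng1 with voom. No called difference changed sign; 14 of 50 differences, none called, changed sign in 34 of 1190 recomputed values. The backgrounds moved as well. At day 7, 6 of all genes were called between DSS and control, against 915 without the libraries of high mitochondrial share, 1220 without DSS day 7 replicate 75, 40 without control day 7 replicate 10 and 0 with voom. For the days in DSS ovaries the number was 3860, against 2043 without DSS day 89 replicate R29, 2063 without R78 and 2503 without DSS day 7 replicate 81. In control ovaries it was 5732, against 3713 without control day 7 replicate 53 and 3141 with the mitochondrial term. The cause of these changes was not tested. No paired analysis was possible because no replicate number recurs between the groups. With 3 or 4 libraries a group, intervals were wide (0.44 to 1.74 for Trp53 at day 7), and Pmaip1, at 10 to 69 reads, was limited by depth.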
